A study of Mus musculus with 14 samples.

Results

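Bone marrow-derived myeloid cells from PyMT brain metastases (BrM) were compared with those from EO771 BrM. All arrays of sorted cells from an intracranial tumor were taken, which gave 6 of the 14 arrays of the series, 4 of PyMT BrM and 2 of EO771 BrM. Both models are built on cell lines of mouse breast cancer. Both groups were C57Bl/6J mice, 14 weeks old on the labels, whose own marrow had been ablated by irradiation and replaced with stem cells of a donor line that expresses green fluorescent protein (GFP) under the ubiquitin C promoter, and whose tumors were taken about 2 weeks after intracranial implantation of untagged cancer cells. GFP+CD11b+ cells were sorted from each tumor, so that both groups hold donor-derived cells carrying the integrin CD11b. GFP marks every blood cell type of the donor, and CD11b is carried by macrophages, monocytes, granulocytes and some lymphoid cells. Each model is 1 cell line. The code of EO771 BrM 2 carries a pair of numbers, and whether it pools 2 mice is not given in the sources used here. Per the methods, mice of the EO771 model gave no usable spleen or marrow cells, so this model has no peripheral arrays of its own. The models were represented by different mice with differently coded arrays, so the cancer model and any batch cannot be told apart.

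Type I interferons bind a receptor found on nearly all cells and, through a factor complex that includes the products of Stat2 and Irf9, switch on a broad set of antiviral genes whose promoters share the interferon-stimulated response element. MHC class II genes are switched on together in antigen-presenting cells by the coactivator CIITA, which is recruited to a conserved block of promoter boxes. In tumors, monocytes that arrive from blood lose monocyte genes and acquire macrophage genes, and in the brain marrow-derived macrophages acquire part of the gene set of microglia, the resident macrophages.

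Each array gave a log2 signal for 45281 probes of the Illumina MouseWG-6 v2 design. The arrays had been quantile normalized, and the median signal was 4.06 on all 6. A value near or under this median is close to the background of the array, and a fold against it is limited by that background. Pearson correlations over probes were 0.950 to 0.961 between PyMT BrM arrays, 0.968 between the EO771 BrM arrays and 0.920 to 0.930 between the models, and no pair of arrays held the same values. A gene was represented by its brightest probe unless another is named, and differences are log2 values of PyMT BrM minus EO771 BrM from limma, called at a Benjamini-Hochberg adjusted p under 0.05. With 4 arrays against 2, an exact permutation test of a single gene cannot go below p = 0.0667, so all calls rest on the model fitted across probes. The p-values measure the spread between these 6 arrays.

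A total of 1542 of 44025 probes outside the X and Y chromosomes (3.5%) were higher in PyMT BrM and 1540 (3.5%) were lower, by limma. By brightest probe, 867 of 18307 genes (4.74%) were higher and 720 (3.93%) were lower, and the median difference over all genes was 0.06. All called probes had PyMT BrM arrays that did not overlap the EO771 BrM arrays, as did 36.1% of all probes. More than 4-fold differences were found in 282 of the higher and 388 of the lower probes, and more than 16-fold differences in 8 and 22. These counts rested on few arrays. Without EO771 BrM 1 no probe was called by limma in either direction, although 6458 had an unadjusted p under 0.05 (10590 with all 6 arrays). Without EO771 BrM 2, 206 probes were higher and 177 lower, without PyMT BrM 2 540 and 686, and without PyMT BrM 4 576 and 670. When 1 EO771 BrM array was left out, the remaining one was assumed to vary like the PyMT BrM arrays. Centred on reference genes, which were on average brighter in PyMT BrM (mean level 10.44 to 10.60 against 10.29 to 10.33), 872 probes were higher and 2243 lower.

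**Figure D1:**
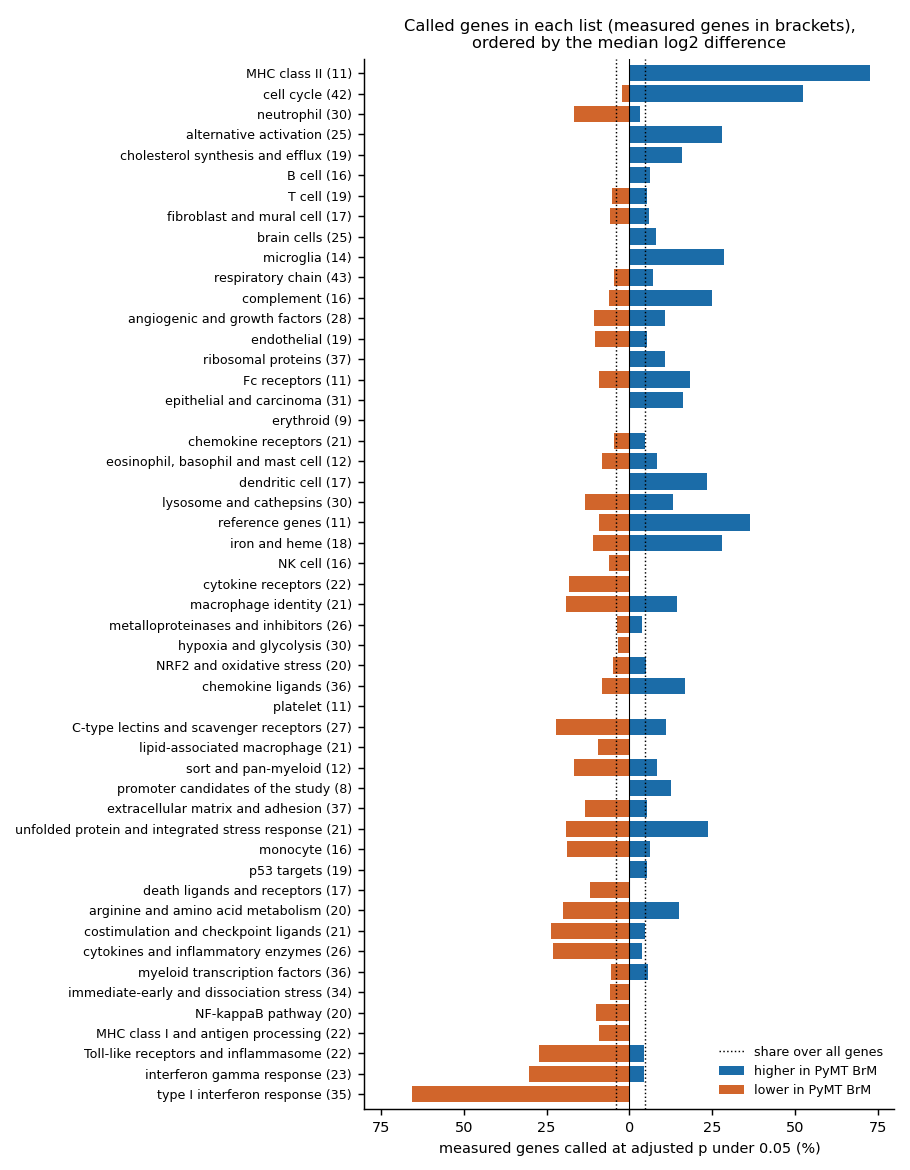
Bars give the percentage of measured genes of each of 51 gene lists that were higher (right) or lower (left) in PyMT BrM than in EO771 BrM at an adjusted p under 0.05, dotted lines the shares over all genes, 4.74% and 3.93%, and the order is that of the median log2 difference. MHC class II and the cell cycle stand at the top with 72.7% and 52.4% higher, and the type I interferon response stands at the bottom with 65.7% lower.

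The type I interferon response was lower in PyMT BrM. Of 35 measured genes 23 were lower and none was higher, against 3.93% lower over all genes, and all 35 differences were negative, with a median of -2.63 against 0.06 over all genes. In 33 of the 35 genes the EO771 BrM arrays both lay above the 4 PyMT BrM arrays, which was so in 17.5% of all genes. Averaged over the list, the level was 6.44, 7.26, 8.09 and 7.58 in PyMT BrM 1 to 4 and 9.93 and 10.08 in EO771 BrM. PyMT BrM 1 was the lowest and PyMT BrM 3 the highest of its group. Fewer cells of a type and less RNA per cell cannot be told apart in these bulk samples. The 8 spleen and bone marrow arrays, which were not part of the test, had list levels of 6.70 to 7.49, within the range of PyMT BrM and below both EO771 BrM arrays. The count of lower genes was 25 without PyMT BrM 1, 14 without PyMT BrM 2, 28 without PyMT BrM 3, 18 without PyMT BrM 4, 6 without EO771 BrM 2 and 0 without EO771 BrM 1.

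**Figure D2:**
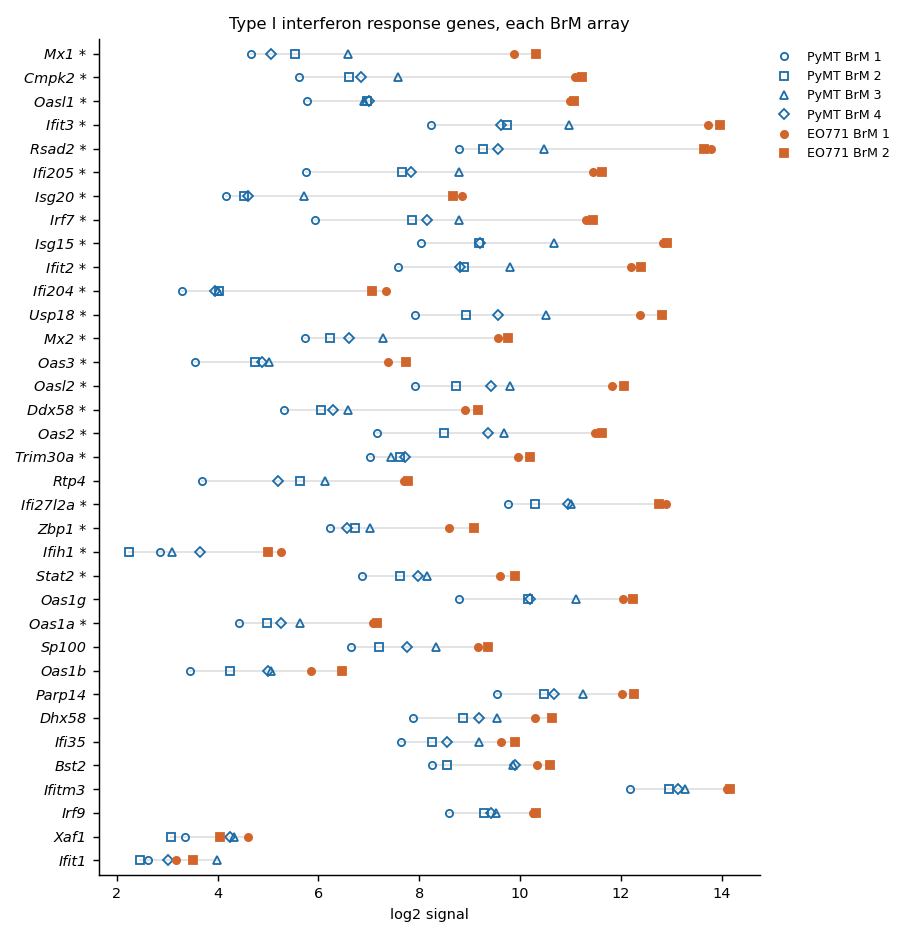
Each row is a gene of the type I interferon response and each symbol its log2 signal in 1 array, open blue for PyMT BrM and filled orange for EO771 BrM, with an asterisk at genes called lower in PyMT BrM. The EO771 BrM arrays lie to the right of all PyMT BrM arrays in 33 of 35 genes (17.5% over all genes), with Xaf1 and Ifit1, both near the background, as the exceptions.

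Among effectors that act on viruses directly, Mx1, a GTPase that blocks viral nucleocapsids, had signals of 4.66, 5.54, 6.59 and 5.05 in PyMT BrM 1 to 4 and 9.88 and 10.31 in EO771 BrM. The difference was -4.64 (SE 0.51, adjusted p = 0.00777), 24.9-fold. Rsad2, which encodes viperin, an enzyme that makes a chain-terminating nucleotide, had 8.79, 9.27, 10.47 and 9.56 against 13.78 and 13.65, a difference of -4.20 (SE 0.43, adjusted p = 0.00718). Its neighbor on chromosome 12, Cmpk2, a mitochondrial nucleotide kinase, differed by -4.49 (SE 0.48, adjusted p = 0.00754), with 5.62 to 7.58 in PyMT BrM and 11.09 and 11.22 in EO771 BrM. For Ifit3, of the family that binds foreign RNA ends, the brightest probe gave 8.24, 9.74, 10.97 and 9.63 against 13.74 and 13.96 (difference -4.20, SE 0.65) and a dimmer probe -4.74 (SE 0.49). In these 4 genes both EO771 BrM arrays lay above all PyMT BrM arrays, and within the PyMT BrM arrays PyMT BrM 1 was the lowest and PyMT BrM 3 the highest each time. Isg15, a ubiquitin-like modifier, differed by -3.60 (SE 0.63) and Usp18, which removes it, by -3.35 (SE 0.64). Further effectors were lower, among them the oligoadenylate synthetase family (Oasl1 -4.37, Oas3 -3.01, Oasl2 -2.98, Oas2 -2.88, Oas1a -2.05), Isg20 (-4.01), Mx2 (-3.19) and Ifi27l2a (-2.32).

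Sensors and transcription factors of the pathway were lower as well. Ddx58, which encodes the RNA sensor RIG-I, had 5.32 to 6.58 in PyMT BrM against 8.91 and 9.16, a difference of -2.98 (SE 0.36, adjusted p = 0.00918). Ifih1, which encodes the sensor MDA5, differed by -2.16 (SE 0.37), with PyMT BrM values of 2.25 to 3.65 that lay below the array median. Zbp1, a sensor of Z-form nucleic acid, differed by -2.20 (SE 0.28). Irf7, the factor that amplifies interferon production, had 5.94, 7.85, 8.78 and 8.16 against 11.30 and 11.44, a difference of -3.69 (SE 0.71, adjusted p = 0.0284). Stat2 differed by -2.10 (SE 0.37, adjusted p = 0.0224), and its partner Irf9 by -1.08 (SE 0.30, adjusted p = 0.0753), which did not pass. The Ifi200 family, nuclear DNA-binding proteins of chromosome 1, had Ifi205 at -4.02 (SE 0.73), Ifi214 at -4.20 (SE 0.34) and Ifi204 at -3.38 (SE 0.28), although a second probe of Ifi204 gave 0.05 and one of Ifi214 gave 0.82, neither called. Members of this family, of the Oas1 genes and of the Ifit genes resemble each other in sequence, and how far their probes share signal was not tested. The most negative difference of all named genes, Ifit1bl1 at -5.41 (SE 0.62, adjusted p = 0.0088), was outside the list and belongs to the Ifit family on chromosome 19. It had 4.16 to 6.68 in PyMT BrM and 10.92 and 10.91 in EO771 BrM.

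The promoter windows of RefSeq (assembly GRCm38.p6, 250 bases before to 50 after each start) were searched for the core of the interferon-stimulated response element, a pair of GAAA with any 2 bases between them, on both strands, with overlapping matches allowed. It was present in 589 of 14609 genes with a window (4.03%) and in 14 of 24 such genes of the interferon list (58.3%). Of the genes called lower in PyMT BrM, 47 of 579 (8.12%) held it, and of those called higher 30 of 690 (4.35%). Stretches around the match are shown for genes described above, 5′ to 3′ on the strand of the gene, with the match in capitals. Isg15 has 3 overlapping matches, of which the middle one is marked, and Ifit3 has 2, of which the one nearer to the start is shown. The Isg15 stretch is chr4:156200861-156200910 on the minus strand, that of Ifit3 chr19:34583387-34583436 on the plus strand, that of Rsad2 chr12:26456543-26456592 on the minus strand, that of Stat2 chr10:128270256-128270305 on the plus strand and that of Oas3 chr5:120777705-120777754 on the minus strand, all upstream of an annotated start. Of the interferon gamma list, 10 of 15 genes with a window (66.7%) held it as well. A match is a description of the letters only.
Isg15: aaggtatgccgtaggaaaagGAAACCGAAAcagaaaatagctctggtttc
Ifit3: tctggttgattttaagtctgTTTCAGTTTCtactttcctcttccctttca
Rsad2: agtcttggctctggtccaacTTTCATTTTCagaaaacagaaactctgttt
Stat2: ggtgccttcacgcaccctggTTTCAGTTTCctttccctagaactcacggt
Oas3: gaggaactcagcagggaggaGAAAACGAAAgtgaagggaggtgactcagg

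Genes that answer to interferon gamma did not all move with the type I list. Of 23 measured genes 7 were lower and 1 higher (30.4% and 4.35%, against 3.93% and 4.74% over all genes), with a median of -1.05. Lower were Tgtp1 (-1.87), Cxcl11 (-1.67, with 0.17 on another probe), Gbp5 (-1.62), Fcgr1 (-1.38), Cd274 (-1.38), Irgm1 (-1.30) and Socs1 (-1.18). The chemokines that draw activated T cells through the receptor CXCR3 had differences of opposite sign. Cxcl10 had 4.04, 4.96, 4.65 and 5.14 in PyMT BrM and 9.29 and 9.12 in EO771 BrM on 1 probe, a difference of -4.50 (SE 0.33, adjusted p = 0.00551), while the brighter probe gave -3.17 (SE 0.83, adjusted p = 0.0668), which did not pass. Cxcl9 had 10.07, 12.99, 12.94 and 12.81 against 7.72 and 9.38, a difference of 3.65 (SE 0.89, adjusted p = 0.0549), which did not pass either. The higher gene was Ciita. The counts changed to 6 lower without PyMT BrM 1 or 3, 3 lower without PyMT BrM 2 or 4 and none without either EO771 BrM array.

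MHC class II genes were higher in PyMT BrM. Of 11 measured genes 8 were higher and none was lower, against 4.74% higher over all genes, and the median difference was 1.97. Ciita, the coactivator of the group, had 8.85, 9.88, 10.04 and 9.50 in PyMT BrM 1 to 4 and 6.24 and 7.35 in EO771 BrM, a difference of 2.77 (SE 0.43, adjusted p = 0.016). H2-Eb1, a beta chain of the peptide-presenting molecule, had 13.64, 14.00, 14.14 and 14.04 against 10.96 and 11.83, a difference of 2.56 (SE 0.30, adjusted p = 0.00889) or 5.88-fold. H2-Ab1, the beta chain of the other mouse molecule, had 14.30 to 14.38 against 11.89 and 12.89 (difference 1.97, SE 0.29), and its other probes gave 2.39 and 2.63. The PyMT BrM arrays lay within 1 log2 unit of each other for these chains, near the top of the array's range of 14.58, whereas EO771 BrM 1 was the lowest array in each.

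The chaperones that load peptide followed the same order. H2-DMa had 13.01, 13.04, 12.99 and 13.11 against 10.39 and 11.26, a difference of 2.21 (SE 0.27, adjusted p = 0.00982). H2-DMb2 and H2-DMb1 differed by 2.35 (SE 0.30) and 2.13 (SE 0.31), and H2-Oa, which modulates the DM chaperone, by 1.90 (SE 0.43, adjusted p = 0.0441). Cd74, the invariant chain that guards the groove, gave 1.73 (SE 0.31), 1.54 (SE 0.29) and 3.69 (SE 0.36) on its 3 probes, all called. H2-Ob at 1.11 (adjusted p = 0.0601), H2-Aa at 0.61 (adjusted p = 0.312) and H2-Ea at -0.27 (adjusted p = 0.671), near the background in all arrays, did not pass. The list's level was 10.60 to 10.88 in PyMT BrM, 8.67 and 9.43 in EO771 BrM, 8.60 to 9.07 in the bone marrow arrays and 10.95 to 11.45 in the spleen arrays except PyMT spleen 2, which had 8.67. The count of higher genes was 8 without PyMT BrM 1, 7 without PyMT BrM 3 or EO771 BrM 2, 6 without PyMT BrM 2 or 4 and 0 without EO771 BrM 1.

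**Figure D3:**
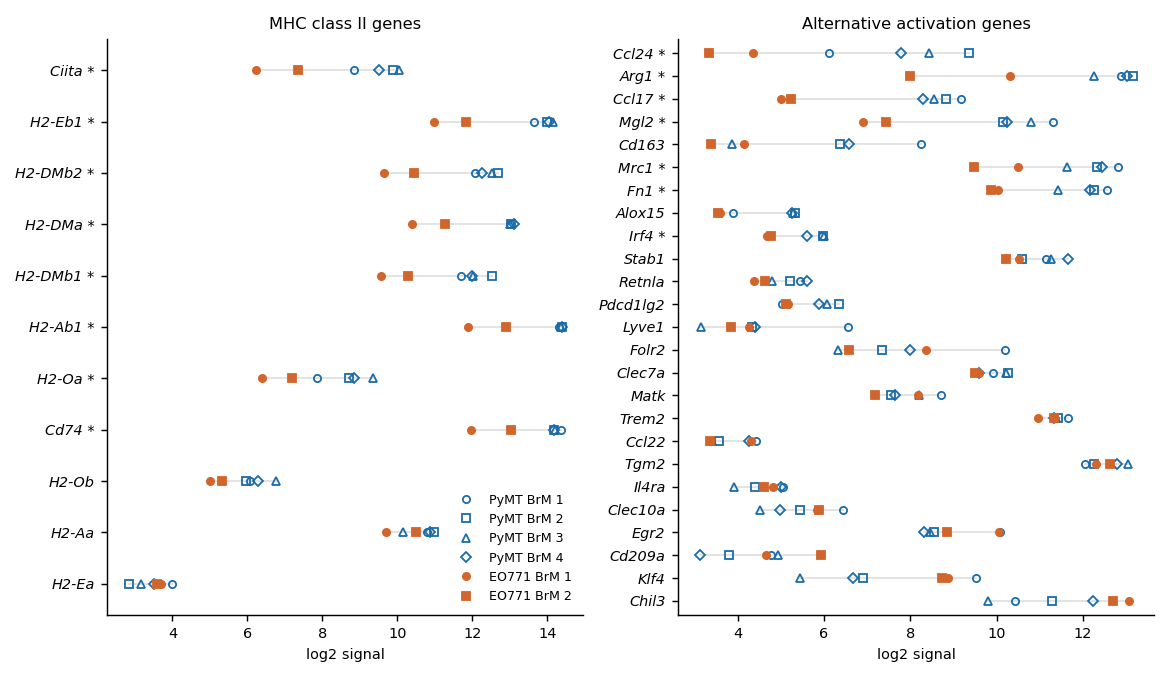
Each row is a gene and each symbol its log2 signal in 1 array, open blue for PyMT BrM and filled orange for EO771 BrM, with an asterisk at genes called higher in PyMT BrM. For MHC class II (left) 9 of 11 genes have all PyMT BrM arrays to the right of both EO771 BrM arrays (23.5% over all genes), the 8 marked genes among them. For alternative activation (right) 7 of 25 genes are marked (28.0%, against 4.74% over all genes).

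The Y box of MHC class II promoters, searched as CTGATTGG on both strands, was present in 805 of 14609 genes with a window (5.51%). It was present in 3 of 7 MHC class II genes with a window (42.9%) and in none of the 24 type I interferon genes with one. Other lists held it too, with 6 of 33 cell cycle genes (18.2%) and 3 of 15 interferon gamma genes with a window. Of the genes called higher in PyMT BrM, 61 of 690 (8.84%) held it, and of those called lower 27 of 579 (4.66%). The Y box is shown in capitals for H2-Eb1, at chr17:34305785-34305832, and H2-Oa, at chr17:34092313-34092360, both on the plus strand. These are the MHC class II genes called higher that held it in their window.
H2-Eb1: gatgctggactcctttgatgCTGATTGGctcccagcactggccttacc
H2-Oa: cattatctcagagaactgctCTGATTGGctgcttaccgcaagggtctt

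MHC class I genes did not share this direction. Of 22 genes of class I and antigen processing 2 were lower (9.09%, against 3.93% over all genes) and none was higher, with a median of -0.67. H2-K1, a classical class I heavy chain, had 8.33, 9.05, 9.20 and 9.04 in PyMT BrM and 11.18 and 11.02 in EO771 BrM, a difference of -2.19 (SE 0.29, adjusted p = 0.0116). H2-Q5 differed by -1.73 (SE 0.40, adjusted p = 0.0468), with 0.83 on another probe, which was not called. Class I genes are near copies of each other, so that a probe can pick up several of them. Without PyMT BrM 1 the list had 3 lower genes, without PyMT BrM 2, 3 or 4 it had 1, and without either EO771 BrM array none.

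Genes of dendritic cells, which present antigen to T cells, were higher in part. Of 17 measured genes 4 were higher (23.5%, against 4.74% over all genes) and none was lower. The median was 0.08, and 7 of the 17 differences were negative, down to -1.13. The markers Flt3, Zbtb46, Xcr1, Clec9a and Ccr7 were measured and not called. Itgae, which encodes the integrin CD103 of a dendritic cell subset and of some T cells, had 7.48, 8.40, 9.44 and 8.66 in PyMT BrM and 4.74 and 5.46 in EO771 BrM, a difference of 3.40 (SE 0.51, adjusted p = 0.0154). Batf3 and Irf4, factors of the cross-presenting and of another conventional subset, differed by 1.63 (SE 0.25) and 1.15 (SE 0.21), and Mgl2, a galactose-binding lectin of dermal dendritic cells and macrophages, by 3.45 (SE 0.38). Of the 5 other probes of Itgae 3 were called higher as well (2.50, 2.21 and 3.12). Higher genes of this list numbered 3 to 5 without any 1 PyMT BrM array, 1 without EO771 BrM 2 and 0 without EO771 BrM 1.

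Genes of alternative activation, the program that interleukin 4 induces in macrophages, were higher in part. Of 25 measured genes 7 were higher (28.0%, against 4.74% over all genes) and none lower, with a median of 0.56. Arg1, the cytosolic enzyme that splits arginine into ornithine and urea, had 12.89, 13.16, 12.25 and 13.01 in PyMT BrM and 10.31 and 7.99 in EO771 BrM, a difference of 3.68 (SE 0.60, adjusted p = 0.0185), with the other probe called higher too. The EO771 BrM arrays lay further apart for this gene than the PyMT BrM arrays. Mrc1, the mannose receptor CD206, had 12.81, 12.33, 11.64 and 12.46 against 10.50 and 9.47 (difference 2.33, SE 0.40). Fn1, which encodes fibronectin, differed by 2.15 (SE 0.33). Other members gave Chil3, which encodes the lectin Ym1, -1.95 (adjusted p = 0.108), Retnla 0.77 (adjusted p = 0.144) and Cd163, the hemoglobin scavenger receptor, 2.50 (adjusted p = 0.195), with PyMT BrM arrays from 3.86 to 8.25. The mitochondrial arginase Arg2 had the opposite direction to Arg1, with 5.56 to 6.11 in PyMT BrM against 8.78 and 8.28, a difference of -2.57 (SE 0.26, adjusted p = 0.00713), and the arginine transporter Slc7a2 was higher by 2.37 (SE 0.26), with its 4 other probes not called. The number of higher genes was 8 without PyMT BrM 1, 6 without PyMT BrM 3, 4 without PyMT BrM 4, 3 without PyMT BrM 2, 2 without EO771 BrM 2 and 0 without EO771 BrM 1.

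Chemokine genes went both ways. Of 36 measured ligands 6 were higher and 3 lower (16.7% and 8.33%, against 4.74% and 3.93% over all genes), with a median of -0.13. Ccl17, a ligand of CCR4 on type 2 and regulatory T cells, had 9.17, 8.82, 8.55 and 8.30 in PyMT BrM and 5.01 and 5.22 in EO771 BrM, a difference of 3.59 (SE 0.28, adjusted p = 0.00551). Ccl24, a ligand of the eosinophil receptor CCR3, had 6.12, 9.35, 8.42 and 7.79 against 4.35 and 3.33, a difference of 4.08 (SE 0.81, adjusted p = 0.0312). Also higher were Cxcl14 (3.38), Cxcl12 (2.96), Ccl8 (2.72) and the membrane-bound Cx3cl1 (1.26). Lower were Ccl4, Cxcl11 and the monocyte attractant Ccl2, with Ccl2 at 7.97, 6.47, 7.24 and 6.08 against 9.86 and 9.14 (difference -2.55, SE 0.53, adjusted p = 0.0343) and Ccl4 at -1.89 (SE 0.43, adjusted p = 0.046). Among 21 receptors Cx3cr1 was higher and Cxcr4, the receptor of Cxcl12, lower (-1.43, SE 0.29). With 4.76% each way, the receptor list lay near the shares over all genes. Leaving out PyMT BrM 1 gave 5 higher and 8 lower ligands, PyMT BrM 2 gave 3 and 1, PyMT BrM 3 gave 5 and 2, PyMT BrM 4 gave 2 and 1, EO771 BrM 2 gave 1 and 0, and EO771 BrM 1 gave none.

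Cytokine genes that were called were mostly lower in PyMT BrM. Of 26 cytokine and enzyme genes 6 were lower and 1 was higher (23.1% and 3.85%, against 3.93% and 4.74% over all genes), with a median of -0.57. Il15, which sustains NK cells and memory T cells, had 8.39, 6.88, 7.83 and 7.05 in PyMT BrM and 10.72 and 10.61 in EO771 BrM, a difference of -3.13 (SE 0.43, adjusted p = 0.0124). Il10, an anti-inflammatory cytokine, differed by -2.46 (SE 0.56, adjusted p = 0.0456), the interleukin 1 antagonist Il1rn by -2.03 (SE 0.37), Il18 by -2.02 (SE 0.24), Il27 by -1.37 (SE 0.32) and Il6 by -1.17 (SE 0.25). The exception was Alox5, the enzyme that starts leukotriene synthesis, with 9.29, 8.45, 7.54 and 8.22 against 4.91 and 4.98, a difference of 3.42 (SE 0.44, adjusted p = 0.011). Of 22 cytokine receptors 4 were lower and none higher, with 11 differences of either sign and a median of -0.04, led by Il7r at -3.97 (SE 0.38) and Il10rb at -2.59 (SE 0.36), and of the 4 other probes of Il7r 1 was called lower (-3.37) and the others gave -0.87, -0.69 and 0.52. Lower cytokine genes numbered 7 without PyMT BrM 1, 3 without PyMT BrM 3, 2 without PyMT BrM 2, PyMT BrM 4 or EO771 BrM 2 and 0 without EO771 BrM 1.

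Receptors of innate recognition were lower in part. Of 22 Toll-like receptor and inflammasome genes 6 were lower and 1 higher (27.3% and 4.55%, against 3.93% and 4.74% over all genes), with a median of -0.73. The lower ones were led by the peptidoglycan sensor Nod1 at -1.71 (SE 0.40, adjusted p = 0.0494) and the signaling brake Irak3 at -1.53 (SE 0.20). Sting1, the adaptor of cytosolic DNA sensing that induces type I interferon, was the higher one, with 8.12, 8.13, 8.28 and 8.68 in PyMT BrM and 6.11 and 6.62 in EO771 BrM, a difference of 1.94 (SE 0.26, adjusted p = 0.0121). Of 27 C-type lectins and scavenger receptors 6 were lower (22.2%) and 3 higher (11.1%). Clec4d and Clec4e, neighbors on chromosome 6 that recognize mycobacterial glycolipid, differed by -3.49 (SE 0.36) and -3.05 (SE 0.32), with 8.50 to 9.63 against 12.87 and 12.19 for Clec4d. Of 20 genes of the NF-kappaB pathway 2 were lower, Traf1 at -2.14 (SE 0.35) and Rel at -1.64 (SE 0.27), and 19 of the 20 differences were negative. Leaving out 1 PyMT BrM array gave 1 to 3 lower Toll-like receptor and inflammasome genes and 3 to 5 lower lectins, leaving out EO771 BrM 2 gave 0 and 3, and leaving out EO771 BrM 1 gave none.

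Among costimulation and checkpoint genes 5 of 21 were lower and 1 higher (23.8% and 4.76%, against 3.93% and 4.74% over all genes). Lag3, an inhibitory receptor that binds MHC class II, had 8.58, 7.84, 7.10 and 7.87 in PyMT BrM and 3.85 and 4.74 in EO771 BrM, a difference of 3.55 (SE 0.43, adjusted p = 0.00972). Lower were Slamf7 (-2.68, SE 0.47), Cd48 (-2.07, SE 0.25), Cd274, which encodes PD-L1 (-1.38, SE 0.25), Havcr2 (-1.11, SE 0.26) and Lgals9 (-0.92, SE 0.20). Of 17 death ligand and receptor genes 2 were lower, Tnfsf10, which encodes TRAIL, at -2.43 (SE 0.43) with 3.58 to 5.21 against 6.85 and 7.09, and the survival gene Bcl2l1 at -1.08 (SE 0.22). Leaving out PyMT BrM 1, 2, 3 or 4 gave 4, 2, 3 or 1 lower checkpoint genes, and either EO771 BrM array none.

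Monocyte genes were lower in part and microglia genes higher in part. Ly6c1, a surface marker of inflammatory monocytes and of endothelium, had 6.87, 8.15, 10.11 and 9.56 in PyMT BrM and 13.66 and 13.85 in EO771 BrM, a difference of -5.08 (SE 0.83, adjusted p = 0.0185) or 33.9-fold. Its probe can share signal with close relatives among the Ly6 genes. Plac8 had 7.54, 8.96, 10.83 and 9.87 against 12.70 and 13.14, a difference of -3.62 (SE 0.80, adjusted p = 0.0426), and Vcan, the proteoglycan versican, 4.31 to 4.83 against 7.66 and 7.17, a difference of -2.88 (SE 0.25, adjusted p = 0.00567). Ly6c1 and Plac8 had the order of arrays seen for the interferon genes, with PyMT BrM 1 lowest and PyMT BrM 3 highest among the PyMT BrM arrays. In all, 3 of 16 monocyte genes were lower and 1, Fn1, was higher (18.8% and 6.25%, against 3.93% and 4.74% over all genes). The median was -0.39, and 7 of the 16 differences were positive, up to 2.15 for Fn1. The list's level was 7.37 to 8.10 in PyMT BrM against 8.57 and 8.56 in EO771 BrM. Leaving out PyMT BrM 2 or EO771 BrM 2 left 1 lower gene, leaving out PyMT BrM 4 left 2 and leaving out EO771 BrM 1 left none.

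Of 14 microglia genes 4 were higher (28.6%, against 4.74% over all genes) and none lower, with a median of 0.39. Cx3cr1, the fractalkine receptor, had 11.52, 11.38, 11.36 and 10.77 in PyMT BrM and 7.40 and 9.10 in EO771 BrM, a difference of 3.01 (SE 0.47, adjusted p = 0.0163). Fcrls, an Fc receptor-like gene of microglia, differed by 1.96 (SE 0.43, adjusted p = 0.0415), Olfml3 by 1.65 (SE 0.39, adjusted p = 0.0493) and the nucleotide receptor P2ry13 by 1.29 (SE 0.29, adjusted p = 0.0432). Tmem119, widely used to tell microglia from macrophages, gave 1.19 (SE 0.32, adjusted p = 0.0724), and P2ry12 5.29 to 6.33 against 5.94 and 6.07 (difference -0.27, SE 0.31, adjusted p = 0.638). The list's level was 7.90 to 8.25 in PyMT BrM, 7.15 and 7.48 in EO771 BrM and 5.78 to 6.19 in the spleen and bone marrow arrays. A single higher gene was left without any 1 PyMT BrM array, 2 without EO771 BrM 2 and 0 without EO771 BrM 1.

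**Figure D4:**
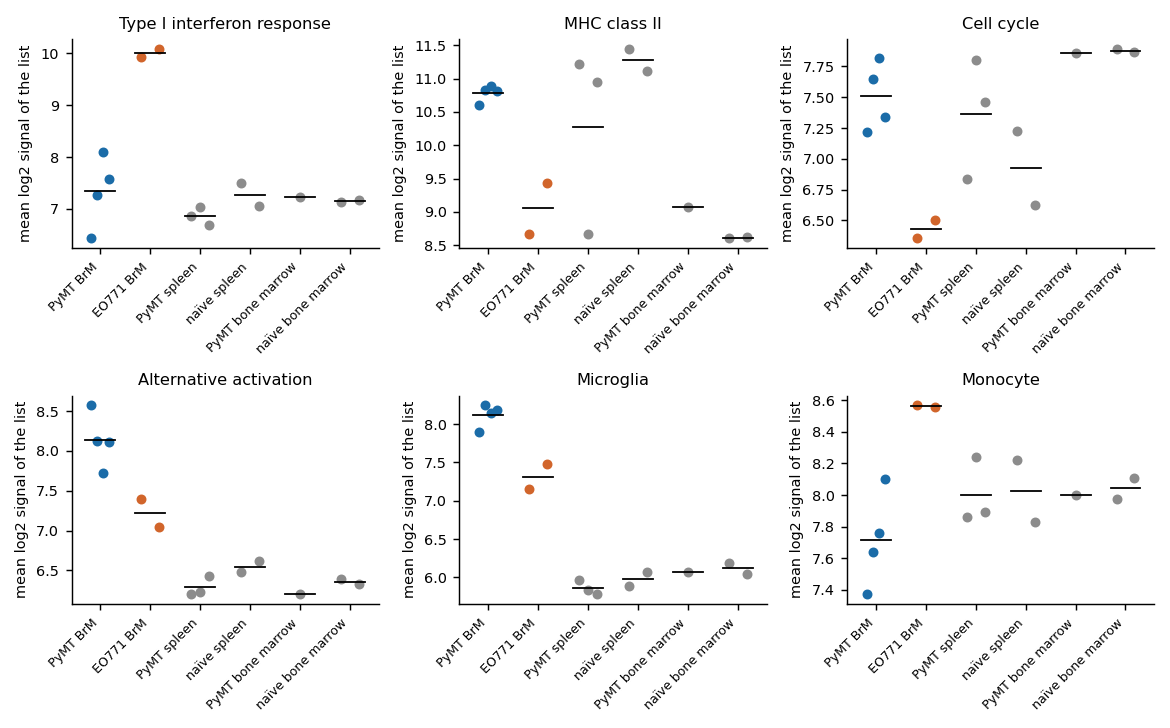
Points give the mean log2 signal of the measured genes of 6 lists in each of the 14 arrays, by group, and black lines the group means (blue, PyMT BrM; orange, EO771 BrM; gray, spleen and bone marrow, which entered no test). The interferon level of EO771 BrM, 9.93 and 10.08, lies above all other arrays, and its cell cycle level, 6.35 and 6.50, below all other arrays.

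Markers of the sort and of macrophages were called in both directions. The level of the sort and pan-myeloid list was 9.93 to 10.23 in PyMT BrM and 10.31 and 10.43 in EO771 BrM, without overlap, and that of the macrophage list 9.97 to 10.38 and 10.23 and 10.26. Itgam, which encodes CD11b, had 7.94, 7.35, 7.29 and 7.38 in PyMT BrM and 7.90 and 7.63 in EO771 BrM, a difference of -0.28 (SE 0.26, adjusted p = 0.563), and Adgre1, which encodes F4/80, differed by -0.48 (SE 0.29, adjusted p = 0.367). Itga4, which encodes CD49d, differed by 0.01 (SE 0.23, adjusted p = 0.989), a difference whose sign changed with the normalization. Ptprc, which encodes CD45, was lower at -2.03 (SE 0.32) on its brightest probe, at 5.97 on average, while dimmer probes gave 0.93, 0.41 and -1.39 and were not called. Of 21 macrophage genes 3 were higher and 4 lower (14.3% and 19.0%, against 4.74% and 3.93% over all genes). The higher ones were Mrc1 and the complement components C1qa (1.32, SE 0.21) and C1qc (1.17, SE 0.22), and the lower ones Mpeg1, a pore-forming protein, at -1.78 (SE 0.31), the Fc receptor Fcgr1, the scavenger receptor Msr1 at -1.29 (SE 0.22) and Lgals3 at -1.06 (SE 0.21). The other probe of Msr1 had the opposite sign and was not called. In the complement list C4b (2.31, SE 0.37) and the inhibitor Cd59a (1.47, SE 0.27) were also higher and Cfb, of the alternative pathway, lower at -3.04 (SE 0.61). Leaving out 1 array changed the macrophage counts to between 0 and 5 higher and between 0 and 4 lower, with none in either direction without EO771 BrM 1 or EO771 BrM 2.

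Neutrophil genes went both ways. Of 30 measured genes 5 were lower and 1 higher (16.7% and 3.33%, against 3.93% and 4.74% over all genes). The lower ones were Clec4d, Clec4e, the formyl peptide receptor Fpr2 (-1.95, SE 0.44), Hdc (-1.71, SE 0.33) and the growth factor receptor Csf3r (-1.30, SE 0.31). The higher gene was Prtn3, a protease of azurophil granules made in precursors, with 7.88, 8.80, 7.86 and 9.58 against 6.20 and 5.22 (difference 2.82, SE 0.54). The list's median, 0.60, was positive although more of its genes were called lower. Its level was 6.50 to 8.17 in PyMT BrM and 7.11 and 6.78 in EO771 BrM. Of 12 eosinophil, basophil and mast cell genes 1 was higher, the granule protein Prg2, with 5.44, 8.20, 8.93 and 6.82 against 2.81 and 3.65 (difference 4.12, SE 0.90, adjusted p = 0.0402), and Hdc was lower. Lower neutrophil genes numbered 2 to 4 without any 1 PyMT BrM array, 2 without EO771 BrM 2 and 0 without EO771 BrM 1, and Prg2 was called without PyMT BrM 1 only.

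Cell cycle genes were higher in PyMT BrM. Of 42 measured genes 22 were higher and 1 lower, against 4.74% and 3.93% over all genes, with a median of 1.25. Birc5, which encodes the mitotic protein survivin, had 9.31, 10.23, 10.53 and 9.75 in PyMT BrM and 7.06 and 7.39 in EO771 BrM, a difference of 2.73 (SE 0.36, adjusted p = 0.0115) or 6.63-fold. Among genes of DNA replication Tyms and Tk1, which supply thymidine nucleotides, differed by 2.30 (SE 0.29) and 2.29 (SE 0.35), the helicase subunit Mcm5 by 1.78 (SE 0.33) and the ribonucleotide reductase subunit Rrm2 by 1.72 (SE 0.34). Among genes of mitosis the spindle motor Kif11 differed by 2.52 (SE 0.30), the kinases Plk1, Cdk1 and Aurkb by 1.95 (SE 0.34), 1.80 (SE 0.22) and 1.58 (SE 0.23), Top2a by 1.94 (SE 0.33) and the transcription factor Foxm1 by 1.09 (SE 0.25). Genes of S phase and of mitosis were thus both among those called. Other probes were called higher for Birc5 (2 of 2), Foxm1 (1 of 1) and Tyms (1 of 4). None was called for Tk1 (2 of 3 positive), for Rrm2, Cdk1 and Top2a (2 each, all positive) or for Kif11 (1, positive). Kif20a, another spindle motor, was the lower one at -1.25 (SE 0.29), with PyMT BrM values of 2.66 to 3.48 under the array median.

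The level of the cell cycle list was 7.21, 7.65, 7.82 and 7.34 in PyMT BrM 1 to 4 and 6.35 and 6.50 in EO771 BrM, the lowest of all 14 arrays, against 6.63 to 7.80 in spleen and 7.86 to 7.89 in bone marrow. The number of higher genes was 21 without PyMT BrM 1, 12 without PyMT BrM 2, 18 without PyMT BrM 3, 14 without PyMT BrM 4, 1 without EO771 BrM 2 and 0 without EO771 BrM 1.

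**Figure D5:**
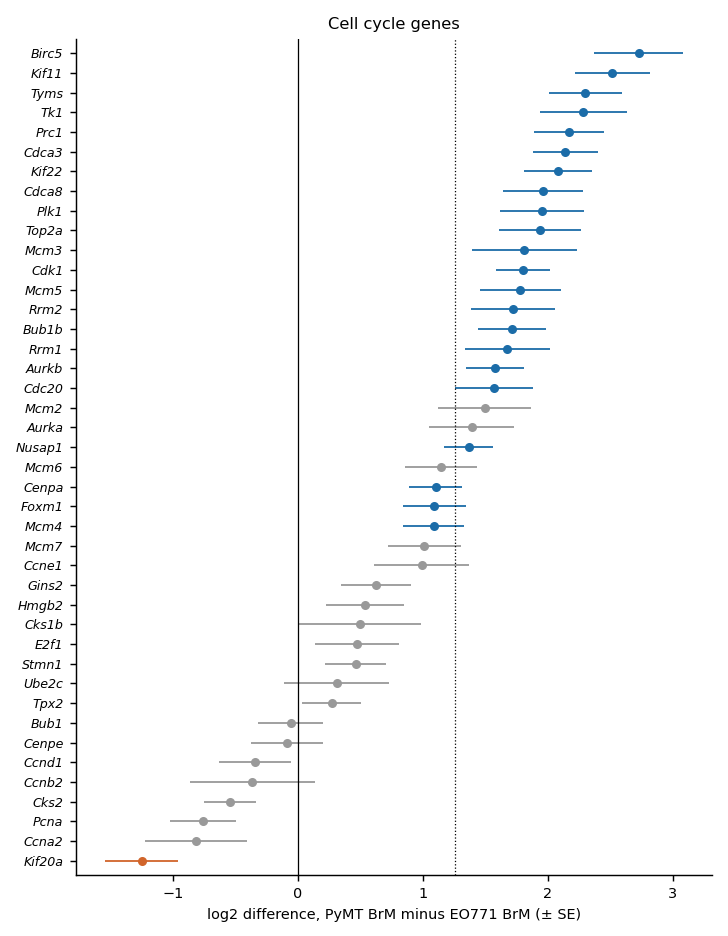
Points give the log2 difference of each of 42 cell cycle genes, PyMT BrM minus EO771 BrM, with bars of 1 standard error from limma (blue, called higher; orange, called lower; gray, not called), and the dotted line marks the list's median of 1.25. A total of 22 genes are called higher, led by Birc5 at 2.73, and Kif20a alone is called lower.

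The largest single difference was that of Mgp, which encodes matrix Gla protein, an inhibitor of calcification made by stromal and some epithelial cells. It had 10.11, 11.85, 10.16 and 11.63 in PyMT BrM and 4.36 and 5.09 in EO771 BrM, a difference of 6.22 (SE 0.57, adjusted p = 0.00638) or 74.4-fold. In spleen and bone marrow its group means were 3.83 to 5.89. The complement component C6 followed at 5.04 (SE 0.58), although EO771 BrM lay at 1.71 and 1.56, far under the array median, then the fibril-associated collagen Col14a1 at 4.59 (SE 0.38) and Tmem273 at 4.32 (SE 0.41). The endothelial and macrophage adhesion molecule Vcam1, which binds CD49d, had 11.47, 11.91, 11.75 and 12.39 against 7.91 and 8.17, a difference of 3.84 (SE 0.29, adjusted p = 0.00551), and 11.21 to 13.58 in the group means of spleen and bone marrow. Aqp1, a water channel, differed by 4.03 (SE 0.84) and Sox4, a transcription factor, by 3.60 (SE 0.38, with -0.45 on a dim probe). At the other end Scara3, a scavenger receptor-like gene, had 2.71 to 4.44 in PyMT BrM and 8.33 and 8.27 in EO771 BrM, a difference of -4.81 (SE 0.49, adjusted p = 0.0071). Dppa4, a nuclear protein of pluripotent cells, had 2.42 to 3.38 against 7.35 and 7.38, a difference of -4.42 (SE 0.30), B3gnt5, a glycosphingolipid enzyme, -4.07 (SE 0.39), the pheromone receptor gene Vmn1r123 -4.03 (SE 0.32) and Ifitm6 -4.29 (SE 0.45). In spleen and bone marrow the group means were 3.07 to 3.80 for Scara3, 2.94 to 3.47 for Dppa4 and 2.52 to 3.41 for Vmn1r123, all under the array median, and 11.67 to 13.46 for Ifitm6. Matrix and adhesion genes as a list had 2 higher and 5 lower of 37 (5.41% and 13.5%, against 4.74% and 3.93% over all genes). The lower ones were led by Thbs1, the anti-angiogenic thrombospondin, at -3.38 (SE 0.70).

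Metabolic and stress genes differed one by one. Shares called higher and lower were 27.8% and 11.1% for iron and heme, and 15.8% and 0% for cholesterol. They were 23.8% and 19.0% for the stress response and 5.56% each way for the transcription factors. Over all genes the shares were 4.74% and 3.93%. Of 18 iron and heme genes 5 were higher, led by the plasma ferroxidase Cp (2.37, SE 0.37) and Hebp1 (2.36, SE 0.30), and 2 lower, Spic, the factor of iron-recycling macrophages, with 5.26 to 6.30 in PyMT BrM against 9.09 and 7.60 (difference -2.71, SE 0.46), and the ferritin light chain Ftl1 (-1.82, SE 0.25). Of 19 cholesterol genes 3 were higher, led by Mvd (2.18, SE 0.31) and Fdps (1.82, SE 0.37) of the mevalonate pathway. In the unfolded protein and integrated stress response, 5 of 21 genes were higher, led by the endoplasmic reticulum protein Sdf2l1 (1.94, SE 0.32), whereas the amino acid response genes Asns (-2.73, SE 0.26) and Trib3 (-1.97, SE 0.24) were among 4 lower ones. Of 36 myeloid transcription factors Batf3 and Irf4 were higher, and Irf7 and Pparg, the lipid-sensing factor of tissue macrophages, at -2.55 (SE 0.30), were lower. Without EO771 BrM 1 none of these was called. Without EO771 BrM 2 none of the cholesterol, stress response and transcription factor genes was called higher, and the counts were 1 higher and 3 lower for iron and heme genes, and 1 lower each for the stress response and the transcription factors.

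Among markers of other cell types, epithelial genes were higher in part in PyMT BrM (16.1%, against 4.74% over all genes). In the other lists of this kind at most 8.0% were higher (brain cells). At most 10.5% were lower (endothelial), against 3.93% over all genes. Of 31 epithelial genes 5 were higher and none lower, namely Krt18 with 6.96, 7.35, 5.44 and 6.77 against 3.93 and 3.66 (difference 2.83, SE 0.50), Krt14 (2.54, SE 0.33), Spint1 (2.45, SE 0.27), Cdh1 (1.63, SE 0.30) and Cldn3 (1.41, SE 0.31). Spint1 had 12.50 to 12.89 in PyMT BrM and 9.80 and 10.57 in EO771 BrM, whereas Epcam, a defining marker of carcinoma cells, had 2.53 to 3.12 in all 6 arrays, under the array median. The level of the epithelial list was 5.10 to 5.69 in PyMT BrM and 4.88 and 4.85 in EO771 BrM, that of the fibroblast list 4.71 to 5.53 and 4.69 and 4.67, and that of the brain cell list 5.06 to 5.94 and 4.85 and 4.75. Mgp was the higher and Pdgfra (-2.53, SE 0.52) the lower of 17 fibroblast and mural cell genes, Plvap (2.77, SE 0.39) the higher and Ly6c1 and Ramp2 (-2.90, SE 0.41) the lower of 19 endothelial genes, and Mag (1.94, SE 0.23, with -0.20 on a dim probe) and S100b (1.27, SE 0.20), at 3.69 to 4.00 even in PyMT BrM, the higher of 25 brain cell genes. The part of cells other than myeloid cells in the differences above was not tested. T cell, B cell and NK cell lists had 1 or no gene called in each direction of 19, 16 and 16, namely Cd8b1 (1.89) and Ly6d (1.62) higher, and Il7r and the perforin gene Prf1 (-1.37) lower. The other probe of Prf1 had the opposite sign and was not called. None of 9 erythroid and 11 platelet genes was called by limma (2 and 1 at an unadjusted p under 0.05), with Ank1 at -1.26 (adjusted p = 0.0753), Slc4a1 at 1.25 (adjusted p = 0.182), Pf4 at -2.20 (adjusted p = 0.122) and Vwf at 0.92 (adjusted p = 0.212) the furthest from 0 by their t. Without EO771 BrM 1 none of the genes of these lists was called, and leaving out EO771 BrM 2 gave 2 epithelial, 1 fibroblast and 1 brain cell gene higher and 1 T cell gene lower.

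The level of the immediate-early and dissociation list was 9.27 in PyMT BrM 1, 7.99 to 8.19 in the other PyMT BrM arrays and 9.13 and 8.83 in EO771 BrM, so that PyMT BrM 1 lay above both EO771 BrM arrays. Of 34 genes 2 were lower (5.88%, against 3.93% over all genes), Dusp2 (-2.28, SE 0.34) and Hsp90aa1 (-1.30, SE 0.25), and without PyMT BrM 1 there were 11. The part of dissociation in the other differences was not tested.

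The study's candidates for a promoter active in BrM myeloid cells were compared as well. By brightest probe, Arg1 was higher and none was lower of 8 measured candidates (12.5%, which is 1 gene, and 0%, against 4.74% and 3.93% over all genes). Dimmer probes of Cxcl10 (-4.50) and Ccl7 (-3.24) were called lower. Mmp14, a membrane-bound metalloproteinase, had 12.01, 11.98, 12.17 and 11.97 in PyMT BrM and 12.75 and 12.81 in EO771 BrM, a difference of -0.75 (SE 0.19, adjusted p = 0.0638), against group means of 5.13 to 6.88 in spleen and bone marrow. Trem2, a lipid-sensing receptor, differed by 0.30 (SE 0.22, adjusted p = 0.45), Dab2, an endocytic adaptor, by 0.16 (SE 0.29, adjusted p = 0.778), Cxcl16 by 0.80 (SE 0.26, adjusted p = 0.115), Emp1 by -1.92 (SE 0.50, adjusted p = 0.0648) and the monocyte chemokine Ccl7 by -2.20 (SE 0.60, adjusted p = 0.0729). These candidates were chosen by the study on the same arrays. There were 2 lower candidates without PyMT BrM 1 and 1 without PyMT BrM 3, and the call of Arg1 was lost without PyMT BrM 2, PyMT BrM 4 or either EO771 BrM array.

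The remaining lists had at most 4 genes called in each direction. Over all genes 4.74% were higher and 3.93% lower. Both shares were well above these for reference genes (36.4% and 9.09%), Fc receptors (18.2% and 9.09%) and lysosome and cathepsins (13.3% each). The same held for angiogenic and growth factors (10.7% each), the sort and pan-myeloid list (8.33% and 16.7%) and arginine and amino acid metabolism. Neither share was above them for metalloproteinases (3.85% each) and hypoxia and glycolysis (3.33% lower). Counts of higher and lower genes were 1 and 2 of 12 for the sort and pan-myeloid list (Cd33 against Ptprc and Itgb2), 4 and 4 of 30 for lysosome and cathepsins (with Ctsf at 2.74 and Npc2 at -2.66), 2 and 1 of 11 for Fc receptors (with Fcgrt at 2.37), 0 and 2 of 21 for the lipid-associated macrophage list (Fabp5 at -2.52 and Lgals3), 3 and 3 of 28 for angiogenic and growth factors (with Pdgfc at 1.89 and Angpt2 at -2.63) and 3 and 4 of 20 for arginine and amino acid metabolism. They were 1 and 1 of 26 for metalloproteinases (Mmp2 at 3.16 and Adam8 at -2.39), 0 and 1 of 30 for hypoxia and glycolysis (Hk1 at -1.02), 1 and 1 of 20 for the NRF2 list (Gpx3 at 2.80 and Txn1 at -2.53, the latter on 1 of 3 probes), 1 and 0 of 19 for p53 targets (Sesn1 at 1.49), 4 and 0 of 37 for ribosomal proteins (with Rpl22 at 1.78) and 3 and 2 of 43 for the respiratory chain (with Uqcrc1 at 0.92 and Sdhd at -1.82). Of 11 reference genes 4 were higher, led by Eef2 (1.39, SE 0.26), and Ywhaz was lower (-1.06, SE 0.23), while Gapdh gave 0.07 (SE 0.24, adjusted p = 0.892), a sign that changed under other normalizations. For both Angpt2 and Ywhaz the other probe had the opposite sign and was not called. All calls of these lists were lost without EO771 BrM 1.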

How the data were processed

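RNA of sorted GFP+CD11b+ cells was hybridized to Illumina MouseWG-6 v2 arrays. The log2 values deposited by the authors were used as given. GenomeStudio 2011.1 and limma are named in the submitters' processing notes. The values were quantile normalized (sorted values of the 6 arrays differed by at most 0.0016), the background correction is not given in the sources used here, and base 2 of the logarithm was inferred from values spanning -1.68 to 14.58. Neither detection p-values nor bead counts were used here, so dim probes could not be marked as undetected, and precision is set by how few arrays there are.

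Of 45281 probes, 34885 had 1 gene symbol in the platform annotation, 18 several and 10378 none. X and Y probes (1256) stayed in the fit and out of all counts. A linear model with empirical Bayes moderation (limma 3.58.1, R 4.3.3) was fitted to 4 PyMT BrM and 2 EO771 BrM arrays, with Benjamini-Hochberg adjustment over all probes. On simulated data with these numbers of arrays, 50 probes of 45281 were changed at each size. The model recovered 0% of probes changed by 1 log2 unit, 42% by 2, 96% by 4 and 92% by 6, with 4 wrong calls. Far fewer probes were changed than were called in the data, which makes the adjusted threshold stricter. These rates therefore do not carry over to the comparison itself. Members and lists were chosen with earlier results of these data known. Named were the 15 probes with the largest differences each way among those called and not overlapping, up to 2 called genes each way per list (the 2 with the largest t where none was called), sort markers, reference genes and the study's candidates. A further 70 genes were named after their values were seen. The gene lists held 1248 entries, of which 1140 were measured, and some genes are not reported here. Promoter windows were searched for exact matches. Alternatives changed the threshold, the moderation, the weights, the filter, the normalization, the arrays and the summary of probes.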

Additional observations from a re-analysis of the deposited data

Results flagged for a closer look

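In each of 215 named genes the 4 PyMT BrM arrays were tested for 1 array far from the others (Dixon's test), which chance gives in about 1 in 20 groups. A total of 15 genes had such an array. PyMT BrM 1 was the low array for Oasl1 (5.76), Cfb (4.29), Arg2 (5.56), Ifi204 (3.29) and Cxcl9 (10.07) and the high array for Ftl1 (11.83), Slc4a1 (4.97) and Itgam (7.94). PyMT BrM 2 was the low array for Tmem273 (9.40) and S100b (3.69). PyMT BrM 3 was the low array for Mpeg1 (9.55), Pdgfra (3.96) and Cxcl12 (6.17). PyMT BrM 4 was the low array for Irf4 (5.59) and Socs1 (3.67). Groups of 2 cannot be tested in this way, so the EO771 BrM arrays were not.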

How the results depend on the processing

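With 2 EO771 BrM arrays the calls depended on the processing. Against 1542 probes higher and 1540 lower, limma called 99 and 184 at an adjusted p under 0.01, 2961 and 2714 with a mean-variance trend, 2433 and 2300 with array weights, 2878 and 2743 after a filter on dim probes, 3175 and 3163 with a linear offset of 16, and 934 and 790 when probes of a gene were averaged, which left fewer features. Centred on reference genes 872 were higher and 2243 lower, so that 28.0% of calls were higher, with a shift of -0.21 in the median of all probes. The methods' t-test called 311 and 276. With the replicate block limma called 0 and 0 (4283 and 4284 at an unadjusted p under 0.05), with P-coded PyMT BrM arrays 0 and 0 (4647 and 4537) and with PM-coded ones 0 and 0 (4792 and 4671). These 3 fits used 2 PyMT BrM arrays. The replicate numbers name different mice, whose deviations correlated at -0.05 to 0.05. Leaving out 1 array gave 0 to 1078 higher and 0 to 1368 lower probes. The log2 limit of 1, the robust prior, cyclic loess, all 14 arrays and the fit without X and Y kept both counts within 1.5 times. Of 185 named genes called, none changed direction under any of 22 alternatives. Leaving out arrays, or changing the threshold or the moderation, could not change it, because called probes did not overlap between the models. The calls of these genes were lost without EO771 BrM 1, which leaves 1 EO771 BrM array and no estimate of its spread. The sizes of the differences changed little in some genes and more in others. With 1 array left out Ccl17 gave 3.44 to 3.73, Vcam1 3.67 to 3.98, Cx3cr1 2.15 to 3.86 and Il10 -3.48 to -1.45. Of 183 other probes of 101 of these genes, 155 had the same sign and 78 were called the same way, none the opposite way.

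Signs changed in genes not called. Itga4 gave -0.0097 with cyclic loess, -0.20 centred on reference genes, -0.12 with PM-coded arrays, -0.50 with probes averaged, and -0.21 to 0.23 with 1 array left out. Gapdh gave -0.039 with loess, -0.14 centred, -0.011 with P-coded arrays and -0.24 to 0.38 with 1 array left out. Dab2 gave -0.048 centred, -0.019 with P-coded arrays and -0.16 to 0.47 with 1 left out. Epcam gave 0.0061 with loess, 0.045 with the block and -0.31 to 0.28 with 1 left out. P2ry12 gave 0.038 with the block and H2-Ea 0.11 with PM-coded arrays. The cause was not tested.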
